A study of Mus musculus with 8 samples.

Results

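Hematopoietic stem cells (HSCs) sorted from the spleens of anemic mice (PHZ SP HSC, 2 libraries) were compared with HSCs sorted from the bone marrow of control mice (control BM HSC, 3 libraries). These 5 of the 8 libraries of the series were chosen by tissue and treatment as their titles give them. All mice were wild-type C57BL/6, of both sexes and 8 to 12 weeks old per the study's methods. Anemic mice had received 2 intraperitoneal injections of phenylhydrazine (PHZ) at 60 mg/kg and were analysed on day 3 after the last one, while the labels give PBS as the treatment of the control mice. HSCs were gated as cells negative for the lineage antigens Ter119, B220, Gr-1, CD2, CD3 and CD8 and positive for Sca-1, c-kit and CD150, with no or low CD48. Bone marrow cells were first enriched for c-kit on magnetic beads. HSCs from untreated spleens were not analysed here, so the tissue and the treatment cannot be told apart in any difference given below. The study counts independent animals in the display that shows these data but states no number for the libraries, and neither the labels nor the methods say whether a library held cells of 1 mouse or of several. The p-values therefore measure only the spread between these libraries.

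PHZ is a hemolytic agent that oxidizes hemoglobin and destroys circulating red blood cells. In the mouse, the spleen answers such a loss by stress erythropoiesis, a wave of red cell production from progenitors that come in from the marrow. Red cell precursors switch on the transcription factors GATA1 and KLF1, take up iron through the transferrin receptor, make heme, and fill with globin beneath a membrane anchored by the anion exchanger band 3. HSCs sit at the top of this hierarchy and in an unstressed adult are found mainly in the marrow.

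Gene levels were FPKM (fragments per kilobase of gene, normalized for sequencing depth), and 10982 of the 15142 genes listed in both tables were tested. The libraries rested on 8216626 to 12273650 reads, and 43.3% to 48.6% of these fell on the ribosomal RNA precursor Rn45s. Log2 values correlated across genes with r = 0.901 to 0.942 within the control group and 0.929 between the spleen libraries, and with 0.870 to 0.928 between the groups (genes are not independent replicates). The HSC label held in both groups. The 28 HSC markers and self-renewal factors, all of them tested, summed to 853 to 998 FPKM in control BM HSC and 1016 to 1074 FPKM in PHZ SP HSC.

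Anemic spleen HSCs differed from control marrow HSCs mainly by genes with higher levels. The calcium-binding proteins S100a4 and S100a6, the intermediate filament vimentin, the tetraspanin Cd53, the metallothionein Mt2, the globins and the red cell membrane genes Slc4a1, Cldn13 and Rhd all rose, from 3.44-fold for Vim to 30.2-fold for Mt2. At an adjusted p under 0.05 (limma, Benjamini-Hochberg over all genes tested), 41 genes had higher and 2 had lower levels in spleen HSCs, which is 0.373% and 0.0182% of the genes tested and 0.392% together. The median log2 fold change of the 41 was 2.52 (range 0.64 to 4.13), against 0.00 over all genes tested. Both spleen libraries lay above all 3 control libraries for 15.7% of the genes tested and below them for 13.7%. At an unadjusted p under 0.05 there were 1298 genes, where 549 would pass without any difference. The number of calls rested on the libraries. It was 24 without control BM HSC replicate 3, 1 without PHZ SP HSC replicate 1 and 3 without PHZ SP HSC replicate 2. Of the genes named above, S100a4 alone passed with either spleen library left out. Cldn13, Rhd and Hba-a1 lost the call with a pseudocount of 0.1 FPKM (adjusted p = 0.111, 0.210 and 0.0511). Mt2, Cldn13 and Rhd lost it with voom on recovered reads (0.124, 0.179 and 0.195). Cldn13 and Rhd lost it with a filter of 5 FPKM (0.0557 and 0.0973). Without the trend and robust options S100a6 (0.0549), Vim (0.109), Rhd (0.112) and all 3 globins (0.109 to 0.196) lost it. Mt2 (0.0522) and Rhd (0.0531) lost it with all 8 libraries in the fit. With no filter S100a4 alone kept the call.

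**Figure D1:**
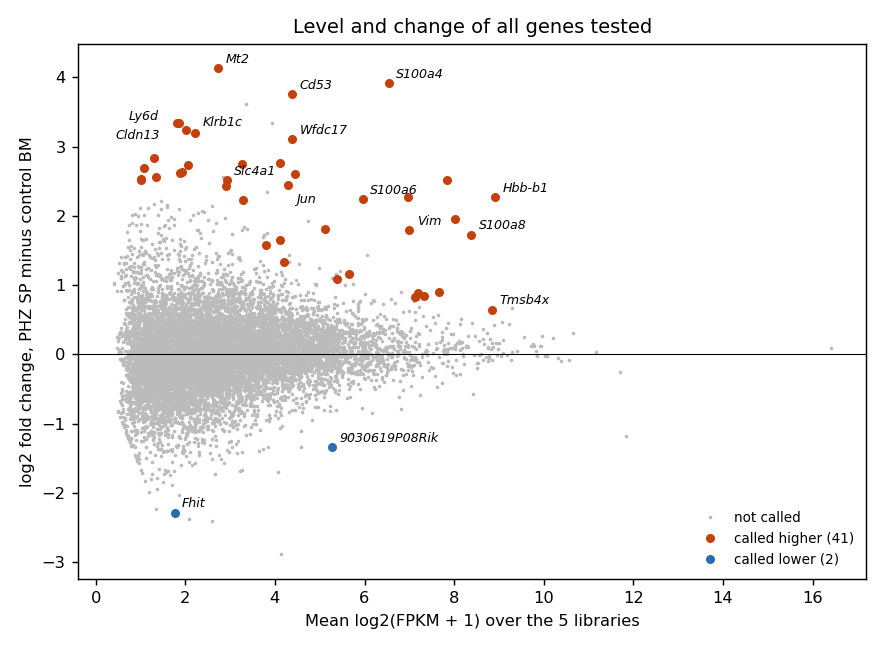
Each point is 1 of the 10982 genes tested, with its mean log2(FPKM + 1) over the 5 libraries on the x axis and its log2 fold change (PHZ SP HSC minus control BM HSC) on the y axis. The 41 genes called higher spread over the whole range of levels, from genes near 0 in control BM HSC to Hbb-b1 and Tmsb4x, and only Fhit and 9030619P08Rik were called lower.

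S100a4 had the smallest p of all. It encodes a small calcium-binding protein that acts on myosin and cell motility. It was at 22.4, 34.5 and 36.3 FPKM in the control libraries and at 429 and 518 FPKM in the spleen libraries, so the nearest values of the groups were 11.8-fold apart. Its log2 fold change was 3.91 ± 0.21 (SE, limma adjusted p = 6.54e-05), and it passed in all 14 alternative fits, the 5 that left out a library among them. S100a6, its neighbour on chromosome 3 (S100a4 at 90603770 to 90606045 and S100a6 at 90612894 to 90614414, build mm10), was at 36.3, 36.2 and 25.8 FPKM against 136 and 180 FPKM. The groups did not overlap, and the log2 fold change was 2.24 ± 0.21 (SE, limma adjusted p = 0.00227).

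Genes of the S100, annexin, galectin and cytoskeleton list held the most calls of any list. Of 31 members 29 were tested, 9 rose and none fell, at a median log2 fold change of 0.74. In 21 of the 29 both spleen libraries were above all control libraries, against 15.7% of all genes tested. This list, like the others, was chosen with earlier results of these data known. Its counts are therefore not independent evidence of the direction. Vim, the intermediate filament of motile and mesenchymal cells, was at 76.6, 62.5 and 95.7 FPKM in control BM HSC and at 252 and 287 FPKM in PHZ SP HSC (log2 fold change 1.79 ± 0.18, SE, limma adjusted p = 0.00334). Lgals1, a galectin that binds sugars on cell surface and matrix proteins, was at 26.1, 12.6 and 24.7 FPKM against 72.3 and 73.8 FPKM (1.81 ± 0.29, adjusted p = 0.0343). The lowest spleen library was 2.63-fold above the highest control library for Vim and 2.77-fold for Lgals1.

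Smaller differences in this list belonged to abundant genes whose libraries agreed closely. Anxa5, which binds phosphatidylserine on membranes, was at 107, 111 and 110 FPKM in control BM HSC and at 194 and 196 FPKM in PHZ SP HSC (log2 fold change 0.83 ± 0.12, SE, limma adjusted p = 0.0291). S100a10, the annexin A2 partner, had 1.85 times the control mean (adjusted p = 0.0343). The actin-sequestering thymosin Tmsb4x had 1.56 times the control mean, 601 ± 57.1 FPKM (SD, n = 2) against 385 ± 27.3 FPKM (SD, n = 3), with an adjusted p of 0.0443. Anxa5 and Tmsb4x passed in no fit with 1 library removed, and S100a10 passed in 1 of 5.

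S100a8 and S100a9, the remaining called members, encode the subunits of calprotectin, which neutrophils hold in large amounts. S100a8 was at 263, 202 and 164 FPKM in the control libraries and at 589 and 790 FPKM in the spleen libraries (log2 fold change 1.72 ± 0.19, SE, limma adjusted p = 0.00562). S100a9 was at 222, 144 and 105 FPKM against 537 and 629 FPKM (1.95 ± 0.25, adjusted p = 0.00999). Retnlg, a resistin-like gene of neutrophils, went from 13.5, 4.32 and 14.1 FPKM to 48.3 and 82.5 FPKM (2.61 ± 0.43, adjusted p = 0.0401). Its adjusted p was 0.0962 with a pseudocount of 0.1 FPKM and 0.115 with voom on recovered reads. Without control BM HSC replicate 3 it was 0.0564. That of S100a9 was 0.0567 with all 8 libraries in the fit. Without the trend and robust options S100a8, S100a9 and Retnlg were at 0.159, 0.174 and 0.196. All 3 genes also stand in the list of 19 neutrophil genes, which summed to 461 to 790 FPKM in control BM HSC and 1502 to 1957 FPKM in PHZ SP HSC. Of its 17 members tested, 15 had a positive fold change, at a median of 1.18. Both spleen libraries were above all controls for 9 of the 17, against 15.7% of all genes tested. Past the filter only through the spleen libraries were 4 of the 17. The granule gene Ngp, at 26.5 to 94.3 FPKM in the controls and 91.8 and 158 FPKM in the spleen libraries, overlapped between the groups, and the late neutrophil marker Ly6g was at 0 to 0.903 FPKM against 3.05 and 8.20 FPKM. The gate excludes cells with Gr-1. What part neutrophil RNA has in the S100a8, S100a9 and Retnlg results was not tested.

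**Figure D2:**
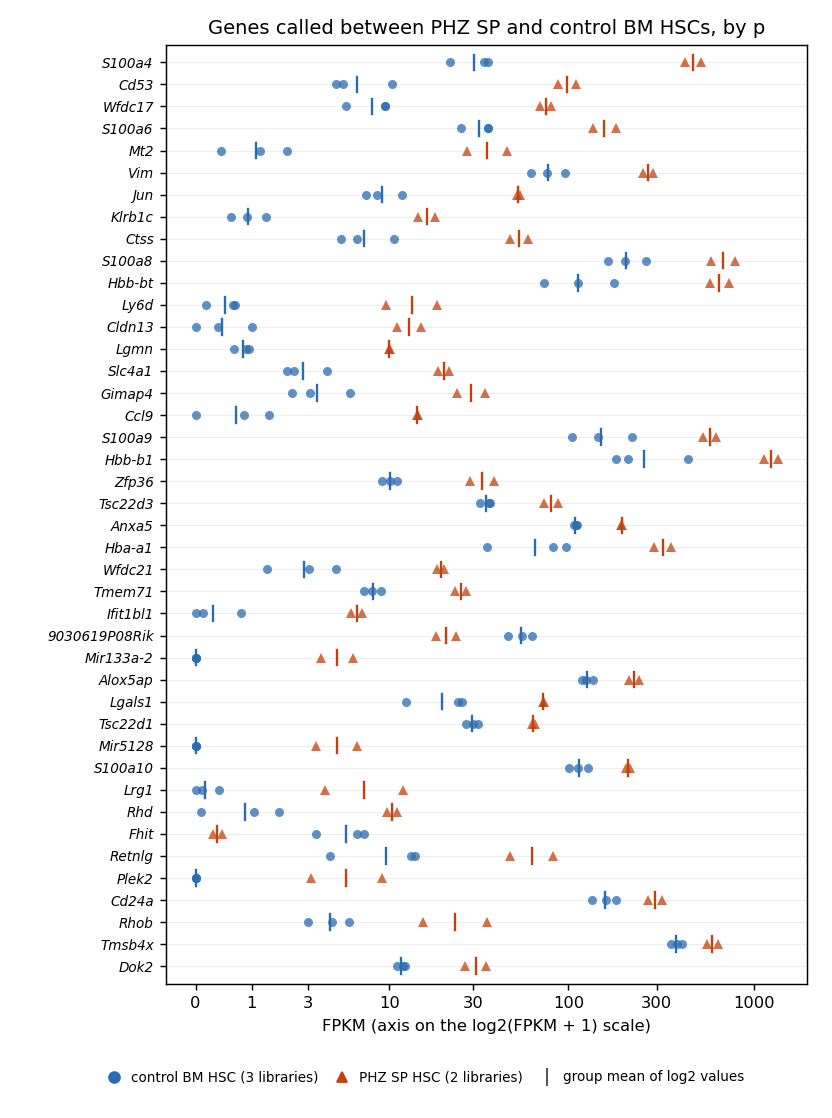
FPKM of called genes in each of the 5 libraries, on the log2(FPKM + 1) scale, ordered from the smallest p at the top, with circles for control BM HSC, triangles for PHZ SP HSC and bars at the group means of the log2 values. S100a4, at the top, lies between 22.4 and 36.3 FPKM in the control libraries and at 429 and 518 FPKM in the spleen libraries.

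Red cell genes formed the next group. All 3 globin genes tested rose, at a median log2 fold change of 2.27. The adult beta globin Hbb-bt was at 176, 73.3 and 112 FPKM in control BM HSC and at 581 and 734 FPKM in PHZ SP HSC. Its groups were 3.30-fold apart at their nearest values, with a log2 difference of 2.52 ± 0.29 (SE, limma adjusted p = 0.00615). Hbb-b1 had a control mean of 279 ± 145 FPKM (SD, n = 3) and a spleen mean of 1245 ± 149 FPKM (SD, n = 2), and the alpha globin Hba-a1 had 71.9 ± 31.9 and 325 ± 47.4 FPKM. Their adjusted p-values were 0.0137 and 0.0291. Without control BM HSC replicate 3 that of Hbb-b1 was 0.279. With the replicate number as a block the adjusted p of Hbb-bt, Hbb-b1 and Hba-a1 was 0.504, 0.610 and 0.378. Without the trend and robust options it was 0.109, 0.174 and 0.196. The globin copies are near-identical, so the split of reads between them is uncertain, and 6 of the 10 listed globin and chaperone genes were not analysed here. Summed over the list, globin was at 290 to 718 FPKM in the control libraries and 2012 to 2446 FPKM in the spleen libraries. In RNA pooled over sorted cells, more cells that carry a transcript and more transcript in each cell cannot be told apart.

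Genes of the red cell membrane and its skeleton showed 4 calls, all higher, among 23 tested of 28. Slc4a1, the anion exchanger band 3 that carries bicarbonate and anchors the skeleton (chromosome 11, 102348820 to 102365281), was at 2.11, 2.39 and 4.06 FPKM in control BM HSC and at 19.2 and 22.0 FPKM in PHZ SP HSC. The lower spleen library was 4.72-fold above the highest control library, and the log2 fold change was 2.52 ± 0.31 (SE, limma adjusted p = 0.00944). Cldn13, a claudin found on mouse erythroid progenitors (chromosome 5, 134914250 to 134915530), was at 0, 0.313 and 1.01 FPKM against 15.3 and 11.1 FPKM (3.35 ± 0.39, adjusted p = 0.00662). The Rh blood group gene Rhd was at 0.0642, 1.81 and 1.07 FPKM against 11.1 and 9.75 FPKM (2.63 ± 0.43, adjusted p = 0.0400; 0.0991 without control BM HSC replicate 3). None of these 3 genes overlapped between the groups. Over the 23 genes the median log2 fold change was 0.72, with 14 genes above all controls and 1 below (15.7% and 13.7% of all genes tested). Of the 23, 7 reached the filter of 1 FPKM in 2 libraries only with the spleen libraries, so the filter largely set their sign.

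The 8 erythroid and iron genes that the study singled out on these samples all had positive fold changes, with a median of 1.91, and 7 of the 8 did not overlap between the groups. Since the list was picked from these libraries, this count is not independent evidence of the direction, and 3 of the 8 passed the filter only with the spleen libraries. Cldn13 and Slc4a1 were the only members past the threshold. Tfrc, the transferrin receptor through which cells import iron, was at 0.646, 2.0 and 3.31 FPKM in the control libraries and at 9.50 and 11.4 FPKM in the spleen libraries, a log2 difference of 2.04 ± 0.42 (SE, limma adjusted p = 0.103). The groups did not overlap, and the adjusted p was 0.0409 when all 8 libraries shared the estimate of the spread (range over the alternatives 0.0234 to 0.538). Carbonic anhydrase Car1 reached 80.8 FPKM in 1 spleen library but 16.3 FPKM in the other, against 2.50 to 12.0 FPKM in the controls (2.34 ± 0.65, adjusted p = 0.213). The mitochondrial iron importer Slc25a37 overlapped, at 4.62 to 7.65 FPKM against 6.45 and 11.6 FPKM.

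**Figure D3:**
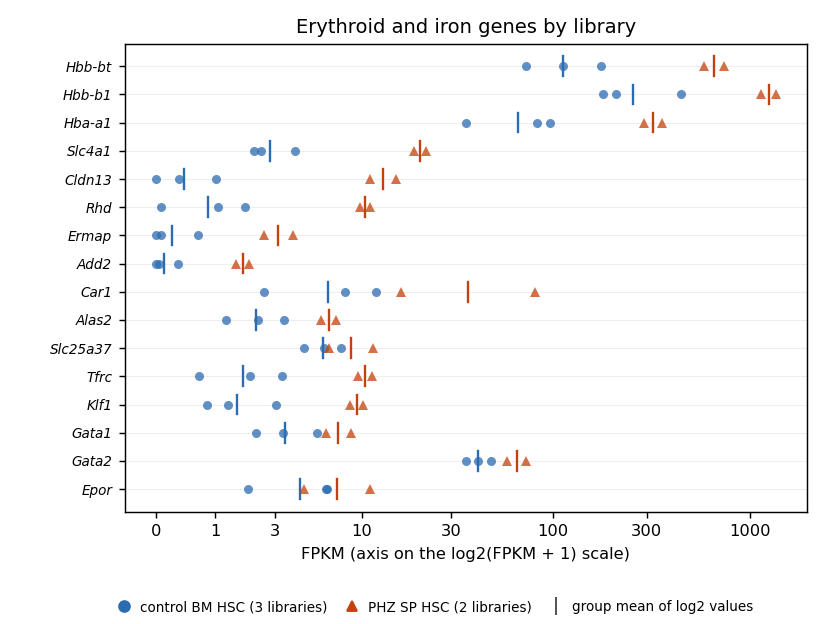
FPKM of erythroid and iron genes in each library on the log2(FPKM + 1) scale, with circles for control BM HSC, triangles for PHZ SP HSC and bars at the group means of the log2 values. The groups are separate for the globins, Slc4a1, Cldn13, Rhd, Tfrc and Klf1, while Slc25a37 and Epor overlap.

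Upstream of these genes, none of the 19 erythroid transcription factors and receptors tested passed the threshold. Klf1, an activator of globin and red cell membrane genes, was at 0.803, 1.31 and 3.03 FPKM in control BM HSC and at 10.1 and 8.58 FPKM in PHZ SP HSC. The groups were apart, at a log2 difference of 2.01 ± 0.39 (SE, limma adjusted p = 0.0917). With all 8 libraries in the fit its adjusted p was 0.0351 (range over the alternatives 0.0266 to 0.560). Gata1, the master regulator of the erythroid lineage, was at 2.22 to 5.48 FPKM against 6.21 and 8.61 FPKM (adjusted p = 0.387). The erythropoietin receptor Epor was at 1.90 to 6.34 FPKM against 4.61 and 11.1 FPKM, so the groups overlapped (adjusted p = 0.663). Ldb1, a bridging cofactor of GATA1 complexes, had the second smallest p in the list with a negative fold change of -1.01 ± 0.26 (adjusted p = 0.179), and Spi1, which drives myeloid fate, had 0.68 ± 0.19 (adjusted p = 0.215). The median of the list was 0.24.

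Heme synthesis, iron handling and oxidative defence had no member past the threshold in either direction. Among 15 heme synthesis genes 11 had positive fold changes and 7 lay above all controls (15.7% of all genes tested did), with a median of 0.42. The erythroid first enzyme of the pathway, Alas2, was at 1.25 to 3.45 FPKM in the controls and at 5.82 and 7.15 FPKM in the spleen libraries (limma adjusted p = 0.241). In contrast to Tfrc, the 21 iron handling genes tested had a median of 0.04, near that of all genes. The 27 genes of heme breakdown and the NRF2 response had a median of 0.05. The glutathione peroxidase Gpx1 had the smallest p among them, at 447 to 621 FPKM in the control libraries and 806 and 847 FPKM in the spleen libraries (log2 fold change 0.67 ± 0.13, SE, adjusted p = 0.0963).

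Promoters of called genes were searched for letters that erythroid factors are known to bind, AGATAA for GATA factors and CCACCC for factors of the KLF family, on both strands. Neither motif contains the other. RefSeq promoter windows (250 bases before to 50 after the transcript start, build GRCm38.p6) were found for 27 of the 41 genes called higher, 35 windows in all. Slc4a1 and Cldn13 had no entry. AGATAA or its complement stood in 4 of the 35 windows (11.4%), against 11.2% of all 32851 promoter windows and 6.47% of those of the genes tested. CCACCC or its complement stood in 14 of the 35 (40.0%), against 31.5% and 36.2%. The 3 windows below are those of Rhd, the red cell membrane gene described above that had an entry, and of S100a4 and S100a6, the S100 genes with the smallest p. They run 5′ to 3′ on the gene's strand, with the matches in capitals.
Rhd promoter, plus strand, chr4:134864286-134864585: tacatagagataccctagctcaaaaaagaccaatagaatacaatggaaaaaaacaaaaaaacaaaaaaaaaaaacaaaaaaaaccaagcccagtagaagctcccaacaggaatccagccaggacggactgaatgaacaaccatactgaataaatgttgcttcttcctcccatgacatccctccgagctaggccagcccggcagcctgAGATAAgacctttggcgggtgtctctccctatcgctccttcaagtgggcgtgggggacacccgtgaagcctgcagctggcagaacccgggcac
S100a4 promoter, plus strand, chr3:90603520-90603819: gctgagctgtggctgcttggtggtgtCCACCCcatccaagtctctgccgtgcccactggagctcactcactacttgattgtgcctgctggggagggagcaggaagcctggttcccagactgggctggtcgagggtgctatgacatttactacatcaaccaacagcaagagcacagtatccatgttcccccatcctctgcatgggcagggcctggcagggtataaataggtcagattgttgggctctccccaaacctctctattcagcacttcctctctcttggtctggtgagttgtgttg
S100a6 promoter, plus strand, chr3:90612644-90612943: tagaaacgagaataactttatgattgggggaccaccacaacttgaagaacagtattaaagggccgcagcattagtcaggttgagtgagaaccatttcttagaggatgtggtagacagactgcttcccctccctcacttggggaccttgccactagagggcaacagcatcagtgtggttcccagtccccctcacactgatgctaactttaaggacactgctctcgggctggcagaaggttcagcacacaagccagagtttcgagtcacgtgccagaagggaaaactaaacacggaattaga
Rhd held the GATA letters and no KLF letters, S100a4 the KLF letters only, and S100a6 neither.

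Genes of the HSC state itself showed no call among the 28 tested, 16 with positive and 12 with negative fold changes (median 0.21). Procr, the endothelial protein C receptor that marks the most potent HSCs, was at 32.4, 49.1 and 38.6 FPKM in control BM HSC and at 87.2 and 74.2 FPKM in PHZ SP HSC, apart by more than the spread within either group but short of the threshold (log2 fold change 1.01 ± 0.20, SE, limma adjusted p = 0.0991). Genes of the sorting markers were read beside it. Kit, the stem cell factor receptor, was at 118.2 to 150 FPKM against 83.9 and 104 FPKM (-0.51 ± 0.16, adjusted p = 0.250). Ly6a, which encodes Sca-1, was at 85.1 to 149 FPKM against 177 and 235 FPKM (0.79 ± 0.23, adjusted p = 0.215). Slamf1, which encodes CD150, overlapped at 2.73 to 9.25 FPKM against 6.13 and 6.85 FPKM (0.27 ± 0.41, adjusted p = 0.843). Cd48, whose protein the gate takes at low or no level, was at 0, 1.22 and 2.73 FPKM in the control libraries and at 7.09 and 8.20 FPKM in the spleen libraries (2.09 ± 0.51, adjusted p = 0.158).

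Cell cycle genes did not pass either. Of 30 mitosis genes 22 had negative fold changes (median -0.27). In this list 5 genes lay below all controls and none above, against 13.7% and 15.7% of all genes tested. Of 30 replication genes 22 were negative (median -0.13). Cyclin E1, Ccne1, which starts S phase, went the other way, at 0.627 to 2.03 FPKM in control BM HSC and at 5.08 and 5.90 FPKM in PHZ SP HSC (log2 fold change 1.65 ± 0.39, SE, limma adjusted p = 0.143). Cyclin B2, Ccnb2, was at 30.7 to 66.5 FPKM against 25.2 and 26.0 FPKM (-0.82 ± 0.28, adjusted p = 0.311).

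Immediate early genes, which answer a stimulus within minutes, gave 2 calls among 13 tested, both higher. Over the list, 11 genes had positive and 2 had negative fold changes, at a median log2 fold change of 1.35. Above all controls lay 10 of the 13, against 15.7% of all genes tested. Jun, a subunit of AP-1, was at 11.9, 8.44 and 7.27 FPKM in the control libraries and at 54.2 and 52.6 FPKM in the spleen libraries (2.44 ± 0.25, SE, limma adjusted p = 0.00334). Zfp36, which marks cytokine transcripts for decay, was at 10.1, 11.1 and 9.09 FPKM against 39.1 and 28.7 FPKM (1.64 ± 0.24, adjusted p = 0.0259). Neither gene overlapped between the groups, and the nearest values of Jun were 4.42-fold apart.

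Lysosomal genes gave 2 calls among 32 tested. Cathepsin S, Ctss, a protease of antigen processing, was at 5.05, 6.39 and 10.7 FPKM in control BM HSC and at 47.8 and 60.0 FPKM in PHZ SP HSC (log2 fold change 2.76 ± 0.30, SE, limma adjusted p = 0.00495). Legumain, Lgmn, an asparaginyl endopeptidase, was at 0.617, 0.862 and 0.932 FPKM against 10.1 and 9.93 FPKM (2.61 ± 0.32, adjusted p = 0.00914). Lgmn reached the filter only through the spleen libraries. Its adjusted p was 0.0757 with a filter of 5 FPKM and 0.0992 with voom on recovered reads. The nearest values of the groups were 4.47-fold apart for Ctss and 10.7-fold for Lgmn, and 26 of the 32 list members had positive fold changes at a median of 0.24. Both proteases are abundant in macrophages, whose marker list (23 of 25 genes listed) summed to 262 to 301 FPKM in the controls and 364 to 369 FPKM in the spleen libraries. Most of that sum was Lyz2. Cd68 was at 0, 4.603 and 8.43 FPKM against 34.5 and 57.9 FPKM (adjusted p = 0.111). Of the 11 macrophage markers tested 7 had positive and 4 negative fold changes, and 3 lay above all controls (15.7% of all genes tested did). Adgre1, Csf1r and Siglec1 were under 1 FPKM in all 5 libraries. What part macrophage RNA has in the Ctss and Lgmn results was not tested.

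A further 18 of the 41 genes called higher belonged to none of the 28 lists. Cd53, a leukocyte tetraspanin, was at 4.70, 5.17 and 10.4 FPKM in the control libraries and at 87.5 and 111 FPKM in the spleen libraries (log2 fold change 3.75 ± 0.31, SE, limma adjusted p = 0.00161). Wfdc17, a secreted whey acidic protein family member made by myeloid cells, was at 9.41, 5.43 and 9.43 FPKM against 70.4 and 80.4 FPKM (3.10 ± 0.27, adjusted p = 0.00161). Mt2, a metallothionein that binds zinc and is induced by metals and glucocorticoids, was at 1.22, 0.378 and 2.10 FPKM against 46.5 and 27.9 FPKM (4.13 ± 0.40, adjusted p = 0.00281). The lowest spleen library was 8.43-fold above the highest control library for Cd53, 7.46-fold for Wfdc17 and 13.3-fold for Mt2.

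Lymphoid and myeloid surface genes were also among the called ones. Klrb1c, which encodes the NK1.1 antigen, was at 1.40, 0.897 and 0.551 FPKM in control BM HSC and at 14.8 and 18.5 FPKM in PHZ SP HSC (log2 fold change 3.19 ± 0.33, SE, limma adjusted p = 0.00364). Klrb1c reached the filter only through the spleen libraries. The only other natural killer cell marker that reached the filter, Nkg7, overlapped at 19.2 to 59.4 FPKM against 27.0 and 28.0 FPKM, and Ncr1, Prf1, Klre1 and Klrk1 were under 1 FPKM in all 5 libraries. Ly6d, a marker of early B-lineage and some dendritic progenitors, was at 0.138, 0.598 and 0.623 FPKM against 18.8 and 9.60 FPKM (3.34 ± 0.39, adjusted p = 0.00642). Of the 6 dendritic cell markers tested, Ly6d among them, 4 passed the filter only through the spleen libraries, so the filter largely set their sign. Ly6d alone passed the threshold. The dendritic and lymphoid regulator Id2 was at 0.936 to 4.24 FPKM against 5.10 and 7.69 FPKM (adjusted p = 0.428), and Itgax, Xcr1 and Siglech were under 1 FPKM throughout.

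The remaining called genes outside the lists are given here after their values were seen. Gimap4, a GTPase of lymphocytes, had 8.0 times the control mean (29.8 ± 7.33 against 3.72 ± 1.80 FPKM, SD, limma adjusted p = 0.00999), and the chemokine Ccl9 had 14.6 ± 0.147 against 0.770 ± 0.750 FPKM at the same adjusted p. Ccl9 reached the filter only through the spleen libraries. It lost the call with a pseudocount of 0.1 FPKM (adjusted p = 0.166) and with voom on recovered reads (0.110). Cd24a, the heat-stable antigen of precursors of several lineages, went from 158 ± 24.0 to 295 ± 33.8 FPKM (adjusted p = 0.0436). Tsc22d3, a target of glucocorticoids, went from 35.7 ± 2.39 to 80.8 ± 9.78 FPKM (adjusted p = 0.0291), and its relative Tsc22d1 from 29.8 ± 2.29 to 64.5 ± 1.68 FPKM (adjusted p = 0.0343). Alox5ap, which helps 5-lipoxygenase make leukotrienes, Wfdc21, Tmem71, Dok2, Rhob and Ifit1bl1 also rose, by 1.80-fold to 22.4-fold over a control mean that for Ifit1bl1 was under 0.3 FPKM. The glycoprotein gene Lrg1 was at 0, 0.0790 and 0.329 FPKM against 12.1 and 3.98 FPKM (log2 fold change 2.84 ± 0.46, SE, limma adjusted p = 0.0381). It passed in no fit that left out 1 library, and the log2 value was 2.14 with PHZ SP HSC replicate 1 dropped and 3.54 with replicate 2 dropped. Plek2, a pleckstrin of the erythroid cytoskeleton, had no read in any control library and 9.01 and 3.17 FPKM in the spleen libraries, at least 33.1-fold higher than a floor of 3 reads in each control library (at least 17.2-fold with PHZ SP HSC replicate 2 alone). It passed in none of the fits with 1 library left out. The miRNA genes Mir133a-2 and Mir5128 were also called, on 7 and 4 and on 6 and 3 reads in the spleen libraries and none in the controls, so they rest on very few reads.

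Only 2 genes fell. Fhit, a diadenosine triphosphate hydrolase, was at 6.39, 7.09 and 3.42 FPKM in the control libraries and at 0.241 and 0.388 FPKM in the spleen libraries (log2 fold change -2.29 ± 0.38, SE, limma adjusted p = 0.0401). The transcript 9030619P08Rik was at 56.2, 63.3 and 47.1 FPKM against 24.2 and 18.6 FPKM (-1.34 ± 0.21, adjusted p = 0.0307). Neither passed in any fit that left out 1 library. Capns1, the small regulatory subunit of calpain, lay just outside the threshold at 20.9, 18.3 and 20.4 FPKM against 6.56 and 8.06 FPKM (-1.33 ± 0.24, adjusted p = 0.0572). It passed with values scaled to the summed FPKM (0.0487), a filter of 5 FPKM (0.0360) and all 8 libraries in the fit (0.0130), in a range over the alternatives of 0.0130 to 0.441. In the same family the catalytic subunits pointed in opposite directions, with Capn1 at -1.37 ± 0.41 (adjusted p = 0.235) and Capn2 at 1.68 ± 0.38 (0.128), and the 9 genes had a median of 0.14.

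**Figure D4:**
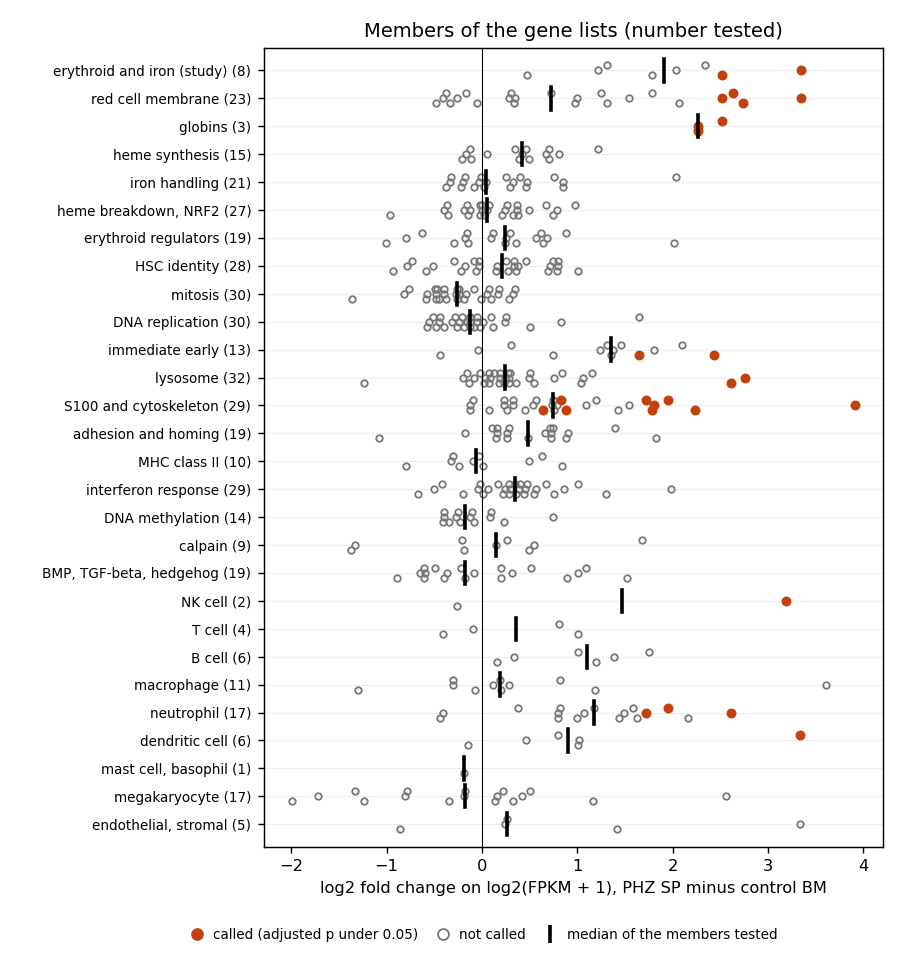
Log2 fold changes (PHZ SP HSC minus control BM HSC) of the members tested in each of the 28 gene lists, with filled points for called genes, open points for the others and a black bar at the median. The medians of the globins (2.27) and of the erythroid and iron genes that the study singled out (1.91) lie furthest to the right, while mitosis, DNA replication and DNA methylation medians lie left of 0.

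The other lists had no member past the threshold. The DNA demethylase Tet2 was at 1.66, 2.23 and 1.67 FPKM in control BM HSC and at 1.87 and 2.20 FPKM in PHZ SP HSC, so the groups overlapped (log2 fold change 0.09 ± 0.35, SE, limma adjusted p = 0.950). The 14 genes of DNA methylation had a median of -0.18. Among 19 adhesion and homing receptors 17 had positive fold changes, 11 lay above all controls (15.7% of all genes tested did) and the median was 0.48. The gut-homing integrin Itgb7 came closest to the threshold, at 4.38 to 5.92 FPKM against 14.7 and 15.5 FPKM (1.39 ± 0.27, adjusted p = 0.0917). The 29 interferon response genes tested had a median of 0.34 (23 positive), the 10 MHC class II genes one of -0.06, and the 19 BMP, TGF-beta and hedgehog genes one of -0.18. For the last list the smallest p belonged to Id3, at 0 to 0.550 FPKM against 1.55 and 2.16 FPKM (adjusted p = 0.352).

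Markers of other cells were read against the same background. The 17 megakaryocyte and platelet genes had a median of -0.18. In that list P-selectin, Selp, was at 0.788 to 4.92 FPKM in the controls and at 13.9 and 28.2 FPKM in the spleen libraries (2.56 ± 0.50, SE, limma adjusted p = 0.0917), and the platelet glycoprotein Gp5 at 8.05 to 10.1 FPKM against 0.980 and 3.78 FPKM (-1.72 ± 0.39, adjusted p = 0.128). Endothelial and stromal markers (17 of 19 listed) summed to 18.4 to 23.6 FPKM against 76.6 and 109 FPKM, and the largest share in the spleen libraries was that of the claudin Cldn5, at 0.983 to 12.7 FPKM against 41.8 and 88.1 FPKM (adjusted p = 0.0982). Of the 5 members tested 4 had positive fold changes. Pecam1, which encodes the adhesion molecule CD31 of endothelial cells and platelets, was at 2.17 to 6.60 FPKM against 9.73 and 12.5 FPKM (1.42 ± 0.40, adjusted p = 0.213), while Cdh5 and Kdr were under 1 FPKM in all 5 libraries. B cell markers summed to 32.6 to 53.0 FPKM against 56.6 and 62.5 FPKM, and 4 of the 6 members tested passed the filter only through the spleen libraries. Cd79b, the signalling chain of the B cell receptor and most of the sum in the control libraries, overlapped at 24.7 to 49.5 FPKM against 43.6 and 31.9 FPKM, and Pax5 and Ebf1 were under 1 FPKM throughout. T cell markers summed to 22.0 to 27.9 FPKM against 30.7 and 34.6 FPKM. Dendritic cell markers summed to 7.11 to 10.8 FPKM against 26.6 and 33.6 FPKM, of which Ly6d was the largest share in both spleen libraries, and mast cell and basophil markers were under 10 FPKM in sum in every library.

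**Figure D5:**
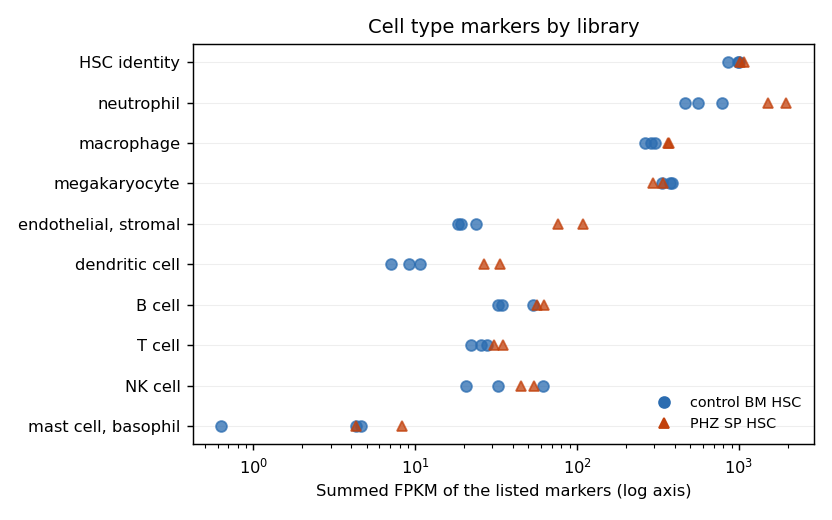
Summed FPKM of the listed markers of 10 cell types in each library on a log axis, with circles for control BM HSC and triangles for PHZ SP HSC. The HSC, neutrophil, macrophage, endothelial and stromal, dendritic, B and T cell sums are higher in both spleen libraries than in any control library, while the natural killer cell, mast cell and basophil, and megakaryocyte sums overlap.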

How the data were processed

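RNA of sorted HSCs was amplified with SMART-Seq2 and made into Nextera XT libraries. Per the study's methods, the authors mapped reads to mm10 with STAR and tested genes with DESeq2. The gene counter, annotation and strand handling are not given in the sources used here, and overlapping genes or near-identical copies can share reads. The authors deposited FPKM values, 1 table per group. Their DESeq2 tables (fold changes and p-values between groups) were not used. All FPKM values came out as whole reads (110442 of 110442 within 0.01 read), which gave the depths. There are no molecular identifiers, so the floor of 3 reads covers counting error only.

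Values of the 5 libraries were brought to 1 scale by median-of-ratios factors (largest shift 1.11%). Genes with at least 1 FPKM in 2 or more of the 5 libraries were tested on log2(FPKM + 1) with limma 3.58.1 in R 4.3.3 (trend and robust options, group as the only factor, two-sided, Benjamini-Hochberg, threshold 0.05). The pseudocount of 1 FPKM understates changes of low genes. Python 3.11.15 did the rest. The fit was also run on simulated counts of a fixed dispersion, with changes planted only in genes of higher read counts. That run does not bear on calls that rest on few reads. Named were the 15 higher genes with the smallest p among non-overlapping calls, up to 10 lower ones (2 were called), list members past the threshold or else up to 3 with the smallest p, and 13 genes regardless of value. Other names, marker values among them, were chosen after values were seen. Some genes counted in the lists are not reported here by name. The comparison, the rule and the 28 lists were chosen with earlier results of these data known. Coordinates and promoters come from RefSeq, GRCm38.p6. Alternatives changed the scaling, pseudocount, filter, variance options, libraries and test (voom on recovered reads).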

Additional observations from a re-analysis of the deposited data

How the results depend on the processing

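Against 43 calls (41 higher, 2 lower), there were 40 with values as deposited (40 of them among the 43), 40 scaled to the summed FPKM (39 shared), 39 with a filter of 5 FPKM (33 shared) and 38 with voom on recovered reads (38 higher, 0 lower, 25 shared). There were 24 with a pseudocount of 0.1 FPKM (22 higher, 24 shared), 14 without the trend and robust options (14 higher, 0 lower, 12 shared), 1 with no filter (1 higher, 0 lower, 1 shared) and 90 with all 8 libraries in the fit (75 higher, 15 lower, 36 shared). Leaving out 1 library gave 1 to 37 calls, 1 to 35 higher and 0 to 2 lower. With 1 spleen library left the fit had fewer samples, and S100a4 alone of the 43 was called in both cases. With the replicate number as a block there were 78 calls (68 higher, 10 lower, 37 shared), but the numbers are not known to pair the samples. The deviations of same-numbered libraries correlated at -0.003 and 0.010. These values cannot settle the pairing, since the deviations of the 2 spleen libraries mirror each other. Control BM HSC replicate 3 has no partner, which leaves 1 residual degree of freedom. Causes of the other changes were not tested. Cd53, Jun, Klrb1c, S100a4, Slc4a1 and Wfdc17 (6 genes) were called under all 8 alternatives that left out no library and kept a filter. Of 1431 alternative values of 104 named genes, 8 changed sign, all in uncalled genes. Slamf1 (0.27) was at -0.10 under the block, and at -0.10 to 0.63 with a library left out (lowest without control BM HSC replicate 3). Cpa3, the only mast cell marker tested (-0.19), was at 0.48 with the pseudocount of 0.1 FPKM, 0.21 under the block, 0.69 with voom, and -0.99 to 0.21 with a library left out. Scaling to the summed FPKM moved the median of all genes from 0.00 to -0.06. The reads limit genes under 1 FPKM most.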

Other observations

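The 41 genes that were higher in spleen HSCs did not all stand alike in the marrow HSCs of anemic mice (PHZ BM HSC, 3 libraries). Set against the same control libraries, they are given here only as values. S100a4 was at 28.4, 47.2 and 78.0 FPKM in PHZ BM HSC, and Klrb1c, Ly6d, Cldn13 and Lgmn were at 3.07 FPKM or less in each of these libraries. Wfdc17 was at 35.4, 77.3 and 64.1 FPKM, of which 77.3 FPKM lies within the range of the spleen libraries. Jun reached 75.7 to 146 FPKM, Zfp36 92.5 to 120 FPKM, Tsc22d3 124 to 134 FPKM and Rhob 42.05 to 62.6 FPKM, above both spleen libraries. Mt2 was at 3.08 and 2.90 FPKM in PHZ BM HSC replicates 1 and 2 and at 41.96 FPKM in replicate 3, and Cd53 at 28.0, 32.8 and 76.3 FPKM. Both genes that were lower in spleen HSCs had PHZ BM HSC values between those of the other groups or within the control range, with 1.66 to 4.85 FPKM for Fhit and 32.7 to 36.9 FPKM for 9030619P08Rik.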
